A study of Homo sapiens with 6 samples.

Results

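The VAV genes VAV1, VAV2 and VAV3 were described in U2932, a long-established lymphoma line of human diffuse large B cell origin. They were chosen by gene symbol with their condition means already known, so their levels and ratios are given as a description with no test. The members are 3 genes of 34675 in the deposited comparison. RNA was sequenced from 3 samples infected with a PRDM11 short hairpin and from 3 infected with a scrambled hairpin, and both groups were selected with puromycin for 3 days. PRDM11 is a PR domain gene of the family of transcription and chromatin regulators. The hairpin group rests on a single hairpin sequence in a single cell line. Whether the samples of a group were separate cultures is not said in the labels, so their spread may be technical.

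The comparison names its conditions A and B only, and neither was assigned to a hairpin. Values per library were recovered from the condition means as whole reads. They are numbered from 1 to 3 in each condition by falling size factor, and these numbers are unrelated to those of the labelled replicates. Summed over all genes, the mean was 43812481 normalised reads for condition A and 41847907 for condition B. PRDM11, the targeted gene, had 268, 272 and 323 normalised reads in condition A and 565, 516 and 545 in condition B. That gene's values were not used to name the conditions.

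VAV proteins are guanine nucleotide exchange factors. They exchange GDP for GTP on small GTPases, chiefly the RAC proteins, and so switch on actin remodelling. They are held inactive until tyrosine kinases such as SYK and LYN phosphorylate them, and their SH2 and SH3 domains tie them to adaptor proteins. In B cells they act downstream of the antigen receptor, and they take part in calcium signalling through PLCG2. VAV1 is largely restricted to blood cells, whereas VAV2 and VAV3 are expressed more widely.

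The cells matched their label by markers of blood cells. The epithelial gene EPCAM was also detected, with means of 1285 (condition A) and 1242 (condition B), as given under other observations. All 9 B cell markers given here (MS4A1, CD79A, CD79B, PAX5, EBF1, CD22, BLK, POU2AF1 and FCRLA) were detected, with means from 4584 to 77768 normalised reads. They summed to 310355 (condition A) and 253981 (condition B). The markers did not differ alike. Their log2 ratios, condition A over condition B, ran from -0.14 (EBF1) to 0.55 (POU2AF1), with 7 above 0 and 2 below. The 7 T and NK cell markers with a row summed to 114 and 123, and the 7 myeloid markers to 71.2 and 59.9. None of these 14 genes had a mean over both conditions of 50 or more, and CD4 was highest with 38.8 and 56.0. The part of the difference in summed B cell markers in the VAV values was not tested.

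The longest run of bases that any transcripts of VAV2 share with those of VAV1 or VAV3 was measured in GENCODE 29. These runs are printed because a read confined to such a run would match both genes. VAV1 and VAV2 share 30 bases, and VAV2 and VAV3 share 22.
VAV1 and VAV2: gaagtggatggagcagtttgagatggccat
VAV2 and VAV3: ggccgcagatgtcccagtttct
The read length is not given in the sources used here.

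VAV1 (ENSG00000141968) had the most normalised reads per kb of exon union in the family in both conditions. Its coding intervals lie on chromosome 19 from 6772819 to 6857115 in build hg19. Condition A libraries gave VAV1 5065, 5102 and 5052 normalised reads, against 6052, 5638 and 5518 in condition B. All 3 libraries of condition A lay below all 3 of condition B. The authors' deposited table gave VAV1 means of 5073 and 5736. That is a log2 ratio, condition A over condition B, of -0.18 ± 0.04 (SE from the recovered libraries, n = 3 each). VAV1 was thus 1.13-fold higher in condition B and was not called in the authors' deposited table. Across its libraries the coefficient of variation was 0.52% (condition A) and 4.88% (condition B), where read counting alone gives 1.43% and 1.30%. The spread in condition A lay below that of counting alone, so the SE of 0.04 may be too small. It is not a measure of whether VAV1 differed.

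VAV2 (ENSG00000160293) differed least between the conditions. Its coding intervals lie on chromosome 9 from 136629187 to 136857400 in build hg19. The libraries held 2310, 2386 and 2741 normalised reads of VAV2 in condition A and 2744, 2683 and 2416 in condition B. The conditions overlapped, since the highest library of condition A exceeded the lower 2 of condition B. The authors' deposited table gave VAV2 means of 2479 and 2615, and VAV2 was not called there. The log2 ratio was -0.08 ± 0.09 (SE from the libraries, n = 3 each). Its ratio lay within the error.

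VAV3 (ENSG00000134215) was the member with the clear difference, and it was higher in condition A. Its coding intervals lie on chromosome 1 from 108115956 to 108507491 in build hg19. Condition A libraries gave VAV3 3459, 3463 and 3403 normalised reads, against 1311, 1649 and 1529 in condition B. The lowest library of condition A was 2.06 times the highest of condition B. The authors' deposited table gave means of 3442 and 1496, so VAV3 was 2.30-fold higher in condition A. The log2 ratio was 1.20 ± 0.10 (SE from the libraries, n = 3 each). The spread was narrow in condition A, with a coefficient of variation of 0.97%, and wider in condition B at 11.5%, against 1.73% and 2.55% from read counting alone. By the deposited p-value VAV3 ranked number 7 among all 34675 genes of either direction. By log2 ratio it was number 20 among genes higher in condition A where the mean was at least 50.

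**Figure D1:**
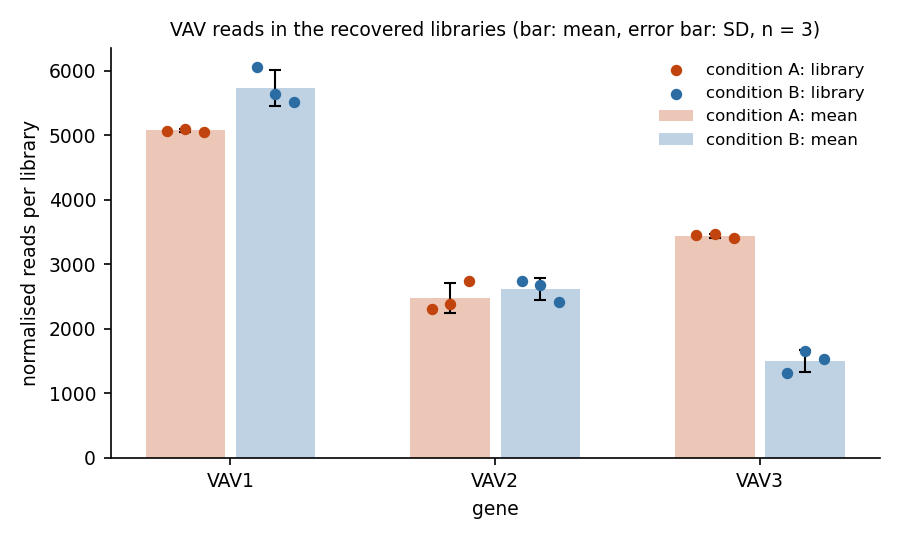
Normalised reads (y axis, linear) of VAV1, VAV2 and VAV3 in the 3 recovered libraries of condition A (orange) and condition B (blue). Bars are means, error bars are SD (n = 3) and points are libraries. VAV3 lay between 3403 and 3463 in condition A and between 1311 and 1649 in condition B, while VAV2 overlapped between the conditions.

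The authors' deposited table called 1 of the 3 members, VAV3, at an adjusted p of 0.05. Across all genes 2.54% were called, 0.966% higher and 1.57% lower in condition A, and 6.04% where the mean was at least 50. The libraries of the conditions did not overlap for VAV1 and VAV3, as for 34.3% of recovered genes of that level. Since the members were chosen with this comparison known, nothing is read from these counts. In bulk RNA, a change in all cells and a change in some of them cannot be told apart.

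Levels of different genes were compared per kb of exon, using the union of GENCODE 29 exons (4.305 kb for VAV1, 5.682 kb for VAV2 and 7.271 kb for VAV3). On this scale of normalised reads per kb, condition A had 1178 ± 6.07 for VAV1, 473 ± 4.6 for VAV3 and 436 ± 40.4 for VAV2 (SD, n = 3). VAV3 and VAV2 were neighbours that did not separate clearly, because library 3 of condition A held 482 reads per kb of VAV2 and 468 of VAV3. Condition B had 1332 ± 65.0 for VAV1, 460 ± 30.7 for VAV2 and 206 ± 23.6 for VAV3 (SD, n = 3), with no overlap between genes. On the exon union the order of VAV2 and VAV3 thus differed between the conditions, and VAV1 led in both, but this order turned with the transcript length used.

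The family's makeup differed between the conditions. Summed over the members without regard to length, normalised reads were 10994 ± 185 in condition A and 9847 ± 339 in condition B (SD, n = 3), and all libraries of condition A (10834 to 11196) lay above those of condition B (9464 to 10106). Summed per kb of exon union they were 2088 ± 33.1 in condition A and 1998 ± 76.3 in condition B (SD, n = 3), and the ranges overlapped. VAV3 made up 22.7% ± 0.564 of this sum in condition A and 10.3% ± 1.4 in condition B (SD, n = 3). VAV1 made up 56.4% ± 1.04 and 66.7% ± 1.38, and VAV2 20.9% ± 1.60 and 23.0% ± 0.726 (SD, n = 3). The shares of a library add up to the whole, so a lower share of VAV3 by itself raises the shares of VAV1 and VAV2. Within a library, reads of VAV3 were 1.5, 1.45 and 1.24 times those of VAV2 in condition A, and 0.478, 0.614 and 0.633 times in condition B. These ratios within a library do not depend on its size factor.

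**Figure D2:**
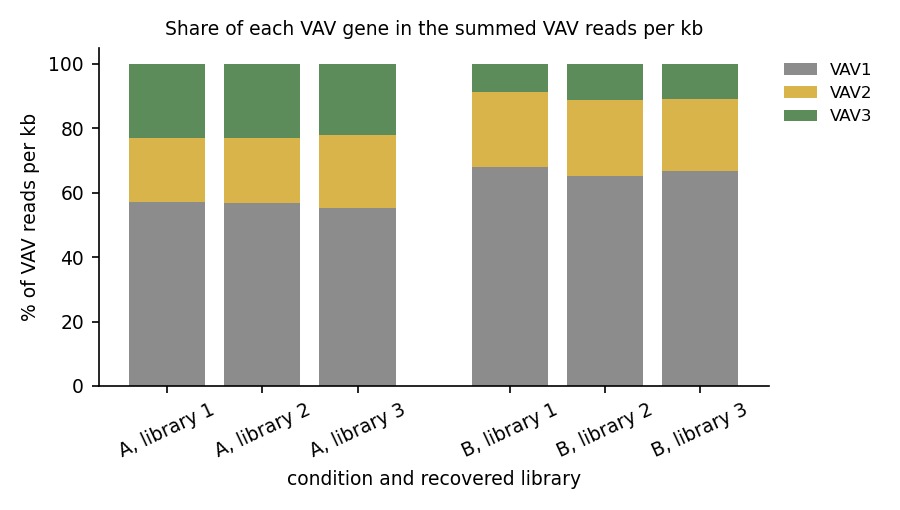
Share of VAV1, VAV2 and VAV3 in the summed VAV normalised reads per kb (y axis, %) in each recovered library of conditions A and B (x axis). The VAV3 share lay between 22.0% and 23.1% in condition A and between 8.71% and 11.3% in condition B.

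The per-kb values rest on a length that the reads do not settle. GENCODE 29 lists 5 coding transcripts of VAV3 from 546 to 4990 bases, 3 of VAV2 from 4691 to 5101 and 5 of VAV1 from 2620 to 2825. With the longest coding transcript in place of the exon union, condition A had 1796 normalised reads per kb of VAV1, 690 of VAV3 and 486 of VAV2. Condition B then had 2030 of VAV1, 513 of VAV2 and 300 of VAV3, and in both conditions this was the order found on the exon union. With shorter coding transcripts of VAV3 the order turned. The VAV3 transcript of 2271 bases gave 1515 normalised reads per kb in condition A and 659 in condition B, above VAV2 in both conditions on any of its coding transcripts (486 to 528 and 513 to 557). The shortest, of 546 bases, gave 6303 and 2740, above VAV1 on any of its own (1796 to 1936 and 2030 to 2189). Full-length and short transcripts of VAV3 were not separated in the deposited values.

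The RefSeq start-site windows of VAV1 and VAV3 are shown because they differ in base composition. Both are from build GRCh38.p14, read 5′ to 3′ on the gene's strand, and end before the annotated start, and the bases of the VAV3 window that lie in an annotated exon were left out. VAV1 lies on the plus strand at chr19:6772458-6772707. The VAV3 window lies on the minus strand at chr1:107688529-107688749, inside the gene and 277 kb from its outermost annotated start. It therefore stands before a short transcript, not the full-length one. Capitals mark matches, on either strand, to an AP-1 motif (TGANTCA), a MYC-type E-box (CACGTG), a PU.1 motif (GAGGAAGT) and a GC box (GGGCGG). These motifs were picked after the sequences were seen.
VAV1: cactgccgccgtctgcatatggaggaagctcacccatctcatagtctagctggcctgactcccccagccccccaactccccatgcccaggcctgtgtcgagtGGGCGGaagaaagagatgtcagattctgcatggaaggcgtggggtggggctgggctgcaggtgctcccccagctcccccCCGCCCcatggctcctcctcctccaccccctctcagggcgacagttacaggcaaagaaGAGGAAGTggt
VAV3: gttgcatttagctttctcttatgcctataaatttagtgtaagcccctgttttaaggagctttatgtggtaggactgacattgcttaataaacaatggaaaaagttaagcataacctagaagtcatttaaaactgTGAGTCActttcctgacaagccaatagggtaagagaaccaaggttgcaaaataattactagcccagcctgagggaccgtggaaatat

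The windows differ in composition. Over the full 250 bases the GC share was 63.6% for VAV1, 81.2% for VAV2 and 37.2% for VAV3, against a median of 58.0% over 35116 windows. VAV3 held 1 CG pair, VAV1 7 and VAV2 40, where the median window has 11. The AP-1 letters occurred 1 time in the VAV3 window, in 0 of the other members' windows and in 6.57% of all windows. VAV1 held 1 PU.1 motif, as do 2.17% of windows, and 2 GC boxes. VAV2 held 4 GC boxes and 1 E-box, where 42.6% of windows have a GC box and 6.34% an E-box. The VAV2 window lies within an annotated exon of a longer VAV2 transcript and is not printed. The E-box of VAV2 overlapped 1 of its GC boxes, and no other matches of different motifs overlapped in these 3 windows. A match is a description of the letters. No binding was measured, and full-length VAV3 starts elsewhere.

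Genes beside the members were read in the order of the coding intervals (hg19), taking the nearest 2 on each side. Of these 12 neighbours 1 was called in the authors' deposited table, against 2.54% of all genes. Around VAV3, the deposited means of NTNG1, a netrin-G adhesion gene, were 849 in condition A and 705 in condition B with DESeq adjusted p = 0.467 and a log2 ratio of 0.27. On the other side, SLC25A24, a mitochondrial carrier, stood at 929 and 754 by the authors' deposited table, and its log2 ratio was 0.30 (DESeq adjusted p = 0.866). PRMT6, an arginine methyltransferase, was at a log2 ratio of -0.03 and NBPF4 was low, with means of 7.86 and 3.88 by the authors' deposited table. The called neighbour was TRIP10, which encodes a CDC42-binding protein and lies 21.5 kb from VAV1. The authors' deposited table gave it means of 635 and 879, with DESeq adjusted p = 0.0135 and a log2 ratio of -0.47.

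**Figure D3:**
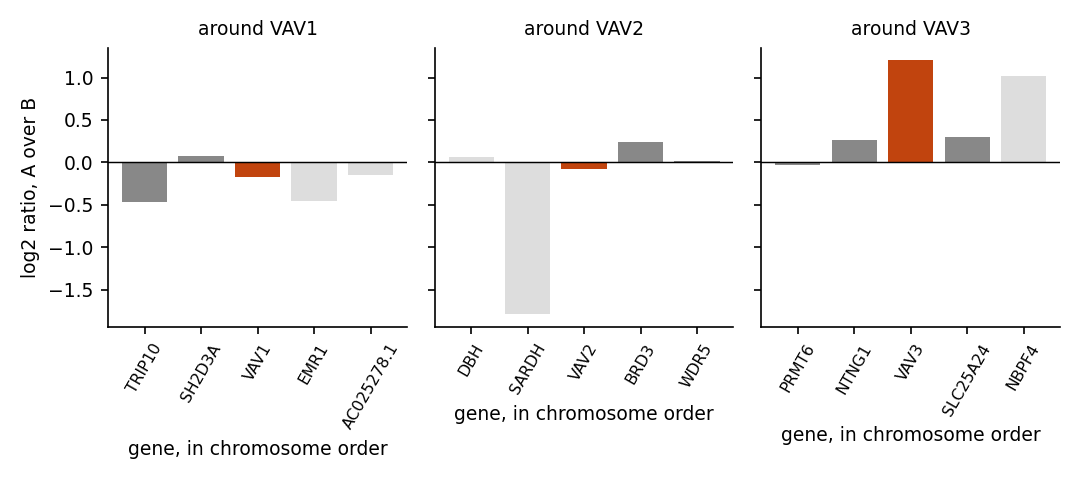
Log2 ratio of deposited means, condition A over condition B (y axis), of each VAV gene (orange) and the nearest 2 coding genes on each side (grey; light grey for a mean under 50), in chromosome order (x axis). VAV3 stood at 1.20, and its immediate neighbours NTNG1 and SLC25A24 at 0.27 and 0.30.

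VAV3-AS1 (ENSG00000230489), an antisense gene at the upstream end of VAV3, had means of 22.3 and 14.7 normalised reads in the authors' deposited table and was not called. Its GENCODE 29 exons do not overlap those of VAV3, and its level is far below that of VAV3. Strand setting of the counting is not given in the sources used here.

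Genes around the VAV proteins in the pathway were read from 4 lists with 67 genes. Of these, 1 was higher and 7 lower in condition A in the authors' deposited table, 11.9% in all with no filter on the mean. Across all genes 2.54% were called, and 6.04% where the mean was at least 50, a level that most list genes reached. The median log2 ratio of the list genes was 0.02, beside 0.00 over the 13565 genes of that level. The largest ratio among list genes with a mean of at least 50 was 0.43, so 0 of them reached the ratio of VAV3. By this ratio VAV3 was number 20 of the 13565 genes of that level. Few genes of any kind reach it, and nothing is read from the count of 0. Standard errors given for these genes are those implied by the deposited p-value.

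Upstream activators and adaptors had 1 gene higher and 3 lower among 19, with a median log2 ratio of -0.01. FYN, a Src family kinase, was lower in condition A, with 2707 to 2898 normalised reads there and 3835 to 4645 in condition B (authors' deposited table: log2 ratio -0.57 ± 0.11 SE, DESeq adjusted p = 0.000113). ITGB2, an integrin chain that signals through VAV proteins, had a log2 ratio of -0.52 (DESeq adjusted p = 0.00236), and CR2, a complement receptor of B cells, of -0.45 (DESeq adjusted p = 0.0246), both taken from the authors' deposited table. CD79B, a signalling chain of the antigen receptor, was the gene higher in condition A, with a log2 ratio of 0.42 by the authors' deposited table and DESeq adjusted p = 0.0226.

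The kinase SYK, named after its values were seen, had means of 13740 and 12854 in the authors' deposited table and was not called. BLNK, the B cell adaptor that binds VAV, had means of 7434 and 6544 and was not called there. LCP2, the related adaptor of T cells, had 1 read in a single library of condition A and 0 in the others. PLCG2, the phospholipase of the antigen receptor, had means of 32733 and 32344 by the authors' deposited table.

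Negative regulators of proximal signalling had 0 genes higher and 1 lower among 10, with a median of -0.05. The gene lower in condition A was PTPN6, the SHP-1 phosphatase that dampens antigen receptor signalling, with 2469 to 2709 normalised reads in condition A and 3751 to 4258 in condition B. Its log2 ratio by the authors' deposited table was -0.62 ± 0.12 (SE, DESeq adjusted p = 1.95e-05). CSK, CD22 and DOK3, the most abundant members, had log2 ratios of 0.06, -0.11 and 0.41 by the authors' deposited table and were not called.

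Effectors of RAC and CDC42, which carry the signal to actin, had 0 of 22 genes called in the authors' deposited table and a median of 0.08. At an unadjusted deposited p of 0.05, 1 of these 22 passed. In the other lists 5 of 19 upstream genes, 2 of 10 negative regulators and 7 of 16 genes of the calcium arm did. The share of all genes at that cut is not given here, so nothing is read from these counts. Limma on the recovered reads, which called 9.23% of the genes it tested, called 0 of the 15 effectors it could test. CFL1, cofilin, had a log2 ratio of 0.17, ARPC2, of the actin-nucleating Arp complex, -0.12, and CYFIP2, of the WAVE complex, -0.15.

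The calcium, NFAT and diacylglycerol arm had 0 genes higher and 3 lower among 16, with a median of 0.01. RASGRP1, a RAS exchange factor recruited by diacylglycerol, was lower in condition A, with 636 to 677 normalised reads there and 982 to 1460 in condition B (authors' deposited table: log2 ratio -0.92 ± 0.22 SE, DESeq adjusted p = 0.00318). RASGRP3, its relative, was at -0.43 (DESeq adjusted p = 0.015) and ITPR3, a calcium release channel, at -0.59 (DESeq adjusted p = 7.85e-05), both taken from the authors' deposited table. The NFAT genes NFATC1 and NFATC2 had ratios of 0.15 and 0.21 and were not called.

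**Figure D4:**
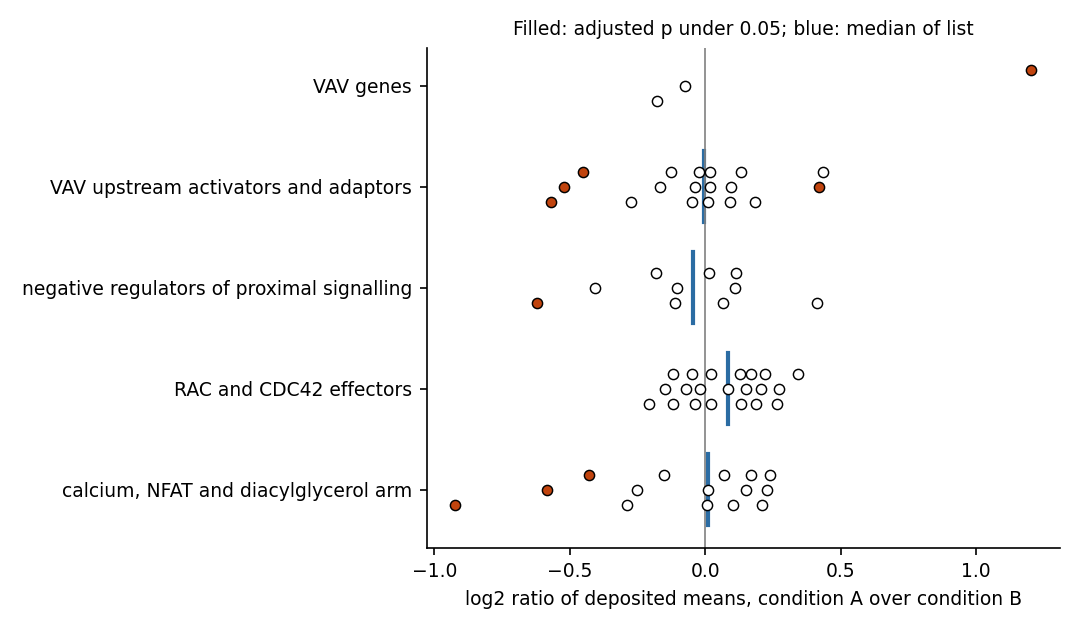
Log2 ratio of deposited means, condition A over condition B (x axis), of the VAV genes and of the members of 4 pathway lists with a mean of at least 50 (rows). Filled points had a deposited adjusted p under 0.05, and blue lines are list medians. VAV3 at 1.20 lay beyond all the list genes plotted, whose highest ratio was 0.43.

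Genes with the most similar pattern were found by Pearson correlation of log2(normalised reads + 1) over the 6 libraries, among 10106 genes. The libraries share their condition with each gene compared, so a difference between the conditions can by itself give a high r. It is a description only. For VAV3 the closest were KIAA0226L (r = 0.998), PDZRN4 (r = 0.997) and RHOH (r = 0.997), and 220 genes exceeded 0.95. PDZRN4 had means of 1468 and 750 in the authors' deposited table and KIAA0226L 2180 and 1745, and KIAA0226L was not called there. For VAV1 they were ECHS1 (r = 0.999), ZCCHC9 (r = 0.996) and NT5C (r = 0.995), all with ratios below 0. For VAV2 they were SNPH (r = 0.979), CAPN1 (r = 0.972) and NFIX (r = 0.970).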

How the data were processed

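The 6 samples were compared by their submitters. Per the submitters' processing notes, STAR, HTSeq 0.5.4p5 and DESeq 1.14.0 were used on build hg19. The sources used here do not give what each did, the gene annotation or whether counting used strand. Per the file headers, the deposited table gives for each condition a mean signal in normalised reads, a fold ratio with its log2, and p-values before and after adjustment. The deposited ratio is condition B over condition A, and its sign was turned for the text. A deposited hg19 track gives a score per coding interval, which was used for positions only, with intervals counted from 1. Calls are the deposited adjusted p at 0.05.

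Each mean is a weighted sum of 3 whole numbers printed with 15 digits. An integer search of means up to 10000 therefore gave the reads of each library, with 1 solution for 31014 of 31051 rows (condition A) and 30955 of 30955 rows (condition B). For means over 1500 each library was held at 0.7 to 1.4 times the mean, except for the VAV genes and PRDM11, where every split was searched. Recovered reads came to 18127685 to 28147570 per library, which hold 53.3% (condition A) and 57.2% (condition B) of all normalised reads. Tested on means simulated with a narrow spread between libraries and the same weights, 2000 of 2000 were recovered in each condition. Wider spreads and error in the weights were not tested. The search ran in Python 3.11.15 with numba 0.67.0.

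As an alternative, limma 3.58.1 (R 4.3.3, with a trend) was fitted across 16629 recovered genes with a mean of at least 10, on log2(normalised reads + 1). On simulated counts of these genes it found 90.5% of 200 genes changed 2-fold and called 7 others. The simulation gave all genes the same low dispersion, and its libraries differed in size factor only. These figures may therefore not hold for the real calls. Named genes are the VAV genes, PRDM11, up to 5 called genes per list with the smallest p and, where fewer than 3 were called, the 3 with the highest mean, and 3 genes of similar pattern per member. Others were named after their values were seen. The members and lists were chosen with earlier results of these data known. Symbols came from the deposited table, and 32769 of 34675 identifiers matched GENCODE 29. Protein sequences were not used here. No column of values per sample was left out (0 columns). Some genes, lists and a sequence are not reported here.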

Additional observations from a re-analysis of the deposited data

How the results depend on the processing

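With any 1 library left out, the log2 ratio stayed between 1.11 and 1.28 for VAV3, between -0.20 and -0.14 for VAV1 and between -0.15 and -0.03 for VAV2. Scaling by the total of recovered reads gave 1.18, -0.19 and -0.09, and pseudocounts of 1 and 0.5 gave 1.21, -0.18 and -0.08. The shifts with scaling and pseudocounts were smaller than the SD between libraries. With 3 libraries per condition, leaving out 1 can hardly move the ratio by more than this SD, so nothing is read from that comparison. The 881 genes called became 1177 with p-values adjusted over rows with a mean of at least 10. By limma on the recovered reads 1535 genes were called, 1586 with no filter on low values, 1517 with a pseudocount of 0.5 and 1538 with scaling by total, and limma shared 815 of the 817 deposited calls it could test. Leaving out 1 library each, limma called 2183, 387 and 1618 genes for libraries 1 to 3 of condition A and 1041, 367 and 387 for those of condition B, and the cause was not tested. In the lists, limma called 2 negative regulators of proximal signalling where the deposited table called 1. Genes with a condition mean above 10000, among them SYK, LYN and PLCG2, have no library values. No paired analysis was possible because the recovered libraries carry no replicate number of the labels.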

Other observations

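EPCAM, an epithelial adhesion gene, had means of 1285 and 1242 normalised reads in conditions A and B in the authors' deposited table and was not called (log2 ratio 0.05). The other 8 epithelial and fibroblast markers with a row, KRT8, KRT18 and CDH1 among them, had condition means of at most 61.3.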
